A study of Mus musculus with 6 samples.

Results

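The genes described here are 10 genes of the NRF2 pathway and of the antioxidant enzymes it controls. They were picked by gene name as known members of the pathway, by a rule that uses no measured value, although earlier results of these data were known when the list was drawn up: Nfe2l2, Keap1, Nqo1, Hmox1, Gclc, Gclm, Srxn1, Gsr, Prdx1 and Txn1. All 10 were found among the 21652 listed genes, and all 10 were among the 12782 genes with enough counts to be tested. The study sequenced ribosome footprints, the mRNA fragments that ribosomes protect from nuclease, in a mouse beta-cell tumour line that secretes insulin (MIN6). In 3 libraries the cells expressed sgNT, which is read here as a guide without a target, and in 3 they expressed sgLTN1, a CRISPR guide against Ltn1, which encodes the ribosome-associated ubiquitin ligase Listerin. No drug treatment, time course or oxidant is named in the labels, and they do not say whether the cells were a pool or a clone, or whether a group's libraries were made from separate cultures. The p-values therefore measure the spread between these libraries, which may be technical.

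NRF2, the product of Nfe2l2, is a transcription factor that pairs with small MAF proteins and binds antioxidant response elements near genes for glutathione synthesis, thiol reduction and detoxification. KEAP1 holds NRF2 for ubiquitination by a CUL3 ligase, so that the amount of NRF2 is known to be set largely by protein decay, and oxidants or electrophiles that modify KEAP1 let NRF2 build up. Beta cells are known for low levels of several antioxidant enzymes, which makes this pathway of interest in an insulin-secreting line. Footprint counts follow the amount of an mRNA and how many ribosomes it carries, and they measure neither NRF2 protein nor enzyme activity.

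The core of the antioxidant response element was searched as TGACNNNGC on both strands (GCNNNGTCA on the other) in RefSeq promoter windows, which run from 250 bases before to 50 bases after a gene's start in the build GRCm38.p6. Windows were at hand for 7 of the 10 genes, and not for Hmox1, Gclc and Gsr. The letters were present in 4 of the 7 (Nfe2l2, Gclm, Prdx1 and Srxn1), against 12.4% of all 32851 windows of the same length. The match in Srxn1 lay after the start and is not printed. The stretches that hold the other 3 matches are shown with the matched letters in capitals, because the pattern searched is the core of the antioxidant response element. They lie at chr2:75704875-75704913 on the minus strand for Nfe2l2, chr3:122245403-122245451 on the plus strand for Gclm and chr4:116685446-116685494 on the plus strand for Prdx1. The last line gives the 250 bases before the start of Nqo1 (chr8:107403206-107403455, minus strand), where these letters are not found. The windows of Keap1 and Txn1 lacked these letters too and are not printed. Nqo1 is printed as the gene with the largest footprint difference of the 10, and a link between that difference and the missing letters was not tested. Bases outside the windows were not searched, so an element further from the start of any gene would be missed. A match is a description of the letters and not a measured binding site.
Nfe2l2: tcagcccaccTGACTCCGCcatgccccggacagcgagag
Gclm: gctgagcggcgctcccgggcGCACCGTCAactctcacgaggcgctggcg
Prdx1: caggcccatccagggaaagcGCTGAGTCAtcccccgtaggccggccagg
Nqo1: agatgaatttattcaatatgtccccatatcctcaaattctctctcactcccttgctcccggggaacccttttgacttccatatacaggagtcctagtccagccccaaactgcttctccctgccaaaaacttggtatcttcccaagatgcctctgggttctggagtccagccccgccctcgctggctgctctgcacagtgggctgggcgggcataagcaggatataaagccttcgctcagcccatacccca

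The libraries held 4373467 to 7802364 counts in sgNT and 4993245 to 11198735 counts in sgLTN1. Footprints on Ltn1 fell to 0.470 of the control level (log2 fold change -1.09, SE 0.07). The adjusted p was 9.24e-05, from the quasi-likelihood test of edgeR adjusted by Benjamini-Hochberg over all tested genes. At the threshold of 0.05 for the adjusted p, 23 genes were called, of which 11 were higher and 12 lower, or 8 higher and 34 lower when libraries were scaled by their totals alone. Without sgNT library 1, 2 or 3 the count was 9, 9 and 12, and without sgLTN1 library 1, 2 or 3 it was 6, 4 and 333. Library 3 of sgLTN1 stood apart from the others of its group, at 7.31 and 5.42 times the squared difference that counting alone gives (chi-square over its degrees of freedom), where those 2 differed from each other by 2.6. Of 9 beta-cell markers, 8 exceeded a mean of 1 CPM (counts scaled to a common library size), the exception being the glucose transporter gene Slc2a2 at 0.738 CPM in sgNT and 0.747 CPM in sgLTN1. None of the 4 acinar and 3 duct markers reached 1 CPM. Above 1 CPM were 2 of 3 fibroblast markers and 1 of 3 immune markers, Cd68. All 3 fibroblast markers together summed to 9.40 to 10.4 CPM in sgNT and 5.76 to 10.7 CPM in sgLTN1. All 3 immune markers together summed to 28.5 to 35.3 CPM in sgNT and 25.7 to 28.9 CPM in sgLTN1. The other endocrine markers, led by Gcg, summed to 579 to 611 CPM and 577 to 655 CPM, and the part of these signals in the results was not tested.

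None of the 10 genes passed the threshold in edgeR, where 0.180% of all tested genes did. DESeq2, in the authors' deposited table, gave an adjusted p to only 2 of the 10, Hmox1 and Txn1, and called neither, while it called 8.42% of the 2697 genes with an adjusted p. By sign, 6 of the 10 were lower in sgLTN1 and 4 higher, where 52.7% of all tested genes were lower, with a median log2 fold change of -0.02, which is also the median over all tested genes. With libraries scaled by their totals 9 of the 10 were lower, at a median of -0.09, again the value for all tested genes. At an unadjusted p under 0.05 there were 2 (20%), Nqo1 and Hmox1, against 15.6% of all tested genes in either direction. Both were lower, where 7.56% of all tested genes were lower by that rule. This count was 0 without sgNT library 1, 1 without sgNT library 2, sgLTN1 library 1 or sgLTN1 library 2, and 3 without sgLTN1 library 3. It was 1 with DESeq2, 1 without a filter on low counts and 3 with libraries scaled by their totals. The same 2 were the only ones of the 10 whose values did not overlap between the groups, against 20.2% of tested genes (10.1% higher and 10.1% lower).

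**Figure D1:**
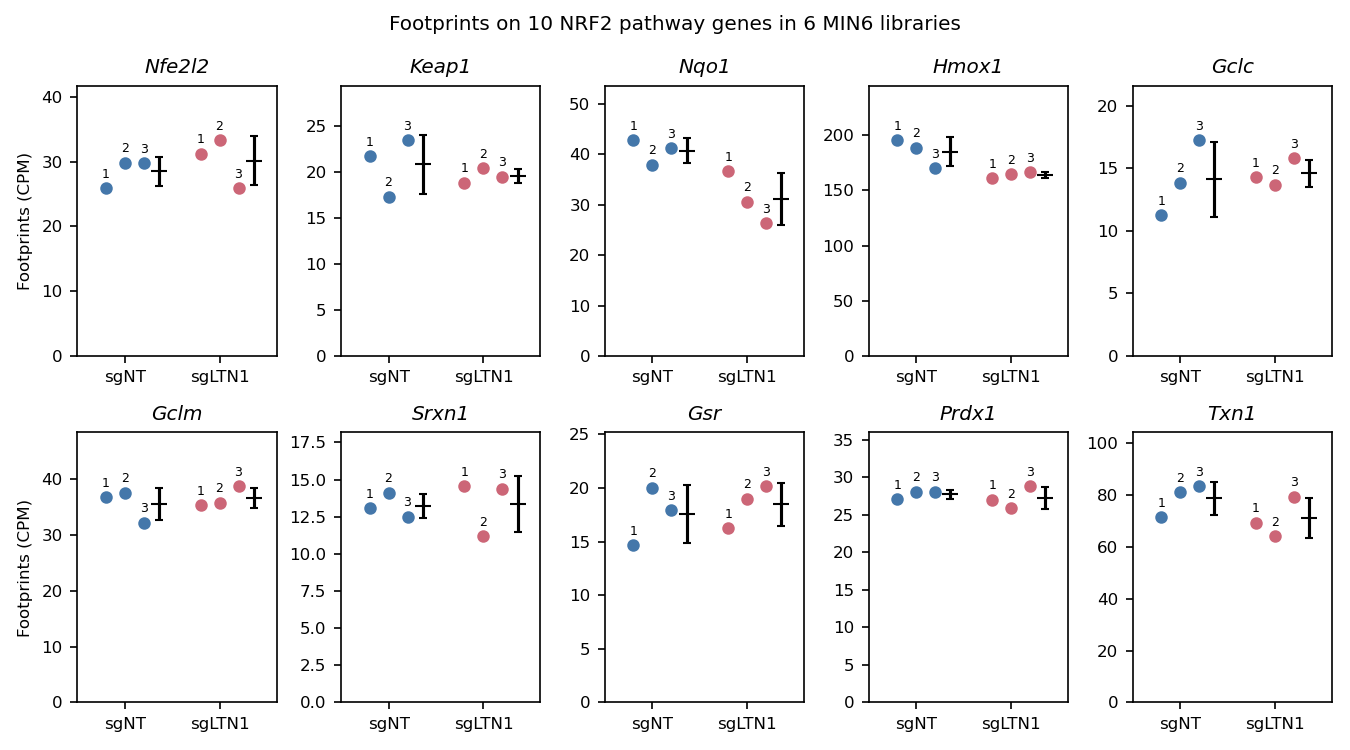
Footprints in CPM (y axis, starting at 0 and scaled per gene) for each of the 10 genes in the 6 libraries, numbered 1 to 3 within the sgNT (blue) and sgLTN1 (red) groups; black bars give the mean and SD of the 3 libraries. The groups separate for Nqo1, where the closest libraries read 38.0 and 36.7 CPM, and for Hmox1, where they read 170.2 and 167 CPM, and they overlap for the other 8 genes.

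Among the regulators, Nfe2l2 (ENSMUSG00000015839.7) read 25.9, 29.8 and 29.8 CPM in sgNT libraries 1 to 3 and 31.2, 33.3 and 25.9 CPM in sgLTN1 libraries 1 to 3. sgLTN1 library 3 was level with the lowest control library, while the other sgLTN1 libraries lay above all controls. The means were 28.5 ± 2.25 and 30.2 ± 3.84 CPM (SD, n = 3 per group), and the log2 fold change was 0.09 (SE 0.11, 95% interval -0.15 to 0.33, adjusted p = 0.745 in edgeR). It was 0.17 without sgLTN1 library 3, 0.03 without sgLTN1 library 2 and 0.01 with libraries scaled by their totals. Keap1 (ENSMUSG00000003308.16), the adaptor that delivers NRF2 to its ligase, read 21.8, 17.3 and 23.5 CPM in sgNT and 18.9, 20.4 and 19.5 CPM in sgLTN1. The sgLTN1 values all lay inside the range of the controls, whose second library was the lowest of the 6. The log2 fold change was -0.07 (SE 0.12, interval -0.34 to 0.20), and it was 0.04 without sgNT library 3. Within each library the ratio of Nfe2l2 to Keap1 counts, not corrected for gene length, was 1.19, 1.72 and 1.27 in sgNT and 1.66, 1.63 and 1.33 in sgLTN1. These ratios overlapped (two-sided exact permutation test over 20 labellings, p = 0.5, where 0.1 is the smallest p that 3 against 3 libraries allow).

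Nqo1 (ENSMUSG00000003849.9), the quinone reductase often used as a readout of NRF2 activity, showed the largest difference of the 10 genes. It read 42.9, 38.0 and 41.2 CPM in sgNT libraries and 36.7, 30.6 and 26.3 CPM in sgLTN1 libraries. Every sgLTN1 library lay below every control, with a narrow gap between sgNT library 2 and sgLTN1 library 1. The means were 40.7 ± 2.48 and 31.2 ± 5.20 CPM (SD, n = 3 per group), which is a fold of 0.782 and a log2 fold change of -0.35 (SE 0.12, 95% interval -0.61 to -0.10). The unadjusted p was 0.0119 and the adjusted p 0.194 in edgeR, so the difference did not pass over all genes. Without sgLTN1 library 3, the lowest of the 6, the log2 fold change was -0.26 (unadjusted p = 0.0322 in edgeR). Leaving out single libraries gave log2 fold changes from -0.50 to -0.26 with unadjusted p from 0.00147 to 0.0518 in edgeR. Adjusted p ranged from 0.0522 to 0.525 over the 11 alternatives that gave one. The 0.0522 came from a fit that pairs libraries by their number, and libraries of the same number did not deviate together. The next lowest was 0.129, with libraries scaled by their totals. For Nqo1 the authors' deposited table lists -0.34 (SE 0.15), an unadjusted p of 0.0276 and no adjusted p.

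Hmox1 (ENSMUSG00000005413.9), which encodes the inducible heme oxygenase that breaks heme into biliverdin, iron and carbon monoxide, had the most counts of the 10 genes, 7285 over the 6 libraries. Control libraries read 196, 189 and 170.2 CPM, and sgLTN1 libraries read 161, 165 and 167 CPM. The sgLTN1 libraries lay close together just under the lowest control, and most of the distance between the means came from sgNT libraries 1 and 2. The means were 185 ± 13.2 and 164 ± 2.82 CPM (SD, n = 3 per group), a fold of 0.887 and a log2 fold change of -0.17 (SE 0.07, 95% interval -0.32 to -0.02). In edgeR the unadjusted p was 0.0284 and the adjusted p 0.258. The log2 fold change was -0.18 without sgLTN1 library 3 and -0.11 without sgNT library 1, and the unadjusted p over single libraries left out ran from 0.00722 to 0.194. Without a filter on low counts the unadjusted p was 0.0667 in edgeR, and with libraries scaled by their totals it was 0.00291. Hmox1 stands at -0.15 (SE 0.09, unadjusted p = 0.0982, adjusted p = 0.295) in the authors' deposited DESeq2 table.

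In glutathione synthesis the rate-limiting enzyme joins a catalytic subunit, from Gclc, with a modifier subunit, from Gclm. Gclc (ENSMUSG00000032350.10) read 11.2, 13.9 and 17.3 CPM in sgNT and 14.3, 13.7 and 15.8 CPM in sgLTN1, so that all sgLTN1 values lay within the control range. Its log2 fold change was 0.03 (SE 0.15, 95% interval -0.29 to 0.36), and it was -0.06 without sgNT library 1 and -0.04 with libraries scaled by their totals. Gclm (ENSMUSG00000028124.17) read 36.7, 37.5 and 32.1 CPM in sgNT and 35.3, 35.7 and 38.6 CPM in sgLTN1, with a log2 fold change of 0.03 (SE 0.09, interval -0.17 to 0.23) that was -0.04 with libraries scaled by their totals. The ratio of Gclm to Gclc counts, uncorrected for length, was 3.27, 2.71 and 1.86 in sgNT and 2.47, 2.61 and 2.44 in sgLTN1. It thus varied more among controls (SD 0.706) than among sgLTN1 libraries (SD 0.0899), and the groups' means of 2.61 and 2.51 lay close together (two-sided exact permutation test, p = 0.9). Gsr (ENSMUSG00000031584.17), the reductase that returns oxidised glutathione to its reduced form, read 14.7, 20.0 and 17.9 CPM in sgNT and 16.2, 19.0 and 20.1 CPM in sgLTN1. Its values overlapped and its log2 fold change was 0.03 (SE 0.13, interval -0.26 to 0.32), with a value of -0.05 both without sgNT library 1 and with libraries scaled by their totals.

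The thiol branch is held by Srxn1, Prdx1 and Txn1. Srxn1 (ENSMUSG00000032802.9), the sulfiredoxin that repairs over-oxidised peroxiredoxins, read 13.1, 14.1 and 12.5 CPM in sgNT and 14.5, 11.2 and 14.4 CPM in sgLTN1, and sgLTN1 libraries held both the highest and the lowest value. Its log2 fold change of -0.0026 (SE 0.14, interval -0.31 to 0.30) was the nearest to 0 of the 10. Prdx1 (ENSMUSG00000028691.13), a peroxiredoxin that reduces hydrogen peroxide, read 27.0, 28.1 and 28.0 CPM in sgNT and 27.0, 25.8 and 28.8 CPM in sgLTN1, with a log2 fold change of -0.04 (SE 0.09, interval -0.23 to 0.15). Txn1 (ENSMUSG00000028367.6), the cytosolic thioredoxin that reduces peroxiredoxins, read 71.5, 81.2 and 83.3 CPM in sgNT and 69.3, 64.2 and 79.3 CPM in sgLTN1. Here sgLTN1 libraries 1 and 2 lay below all controls and sgLTN1 library 3 lay within them. The means were 78.6 ± 6.27 and 70.9 ± 7.70 CPM, and the log2 fold change was -0.16 (SE 0.09, interval -0.37 to 0.05, adjusted p = 0.447 in edgeR). It was -0.23 without sgLTN1 library 3 and -0.08 without sgLTN1 library 2, and the authors' deposited table gave -0.14 with an adjusted p of 0.475. RefSeq lists pseudogenes named Prdx1-ps and Txn-ps1, and how the counting treated reads shared with such copies is not given in the sources used here, so the counts of these genes are uncertain to that extent.

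**Figure D2:**
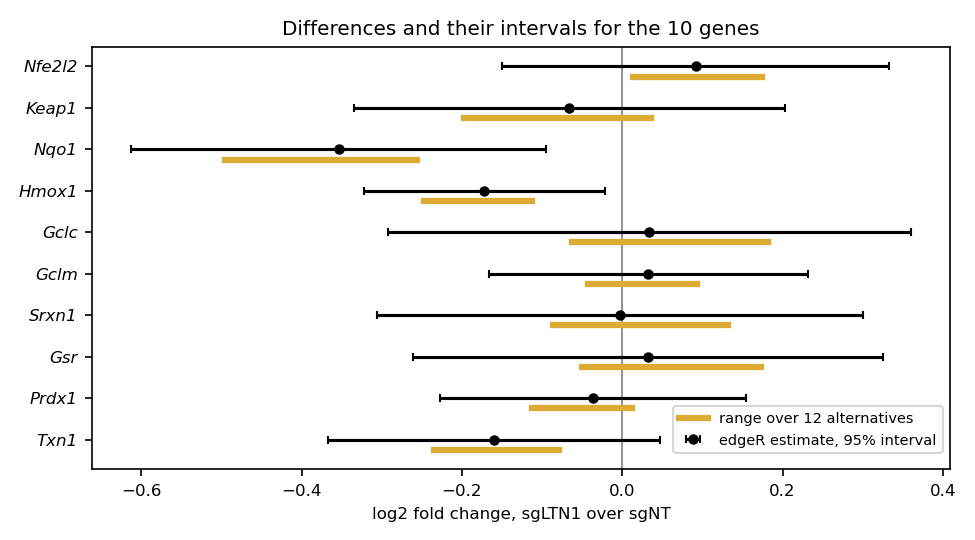
Log2 fold change of sgLTN1 over sgNT (x axis) for the 10 genes, with black points and bars for the edgeR estimate and its 95% interval and a yellow bar for the lowest to highest estimate over 12 alternative settings. The intervals of Nqo1 (-0.61 to -0.10) and Hmox1 (-0.32 to -0.02) lie below 0 before any adjustment over genes, and those of the other 8 genes span 0.

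For the 8 genes with an unadjusted p above 0.05, the intervals ran from -0.37 to 0.36 at the widest. The outermost of these bounds is a 1.29-fold difference. These are intervals per gene, without adjustment for the number of genes. They rest on the spread between these libraries, which may be technical, so larger differences are not excluded. Across 12 alternative settings the sign held for Nfe2l2, Nqo1, Hmox1 and Txn1, and it changed in at least 1 setting for the other 6 genes.

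Spread among replicate libraries was set against the counting error expected from each gene's counts, both as a coefficient of variation (CV, the SD over the mean). The replicate CV exceeded the counting error in 11 of 20 cases, 6 in sgNT and 5 in sgLTN1. Nqo1 stood at 6.11% in sgNT, near its counting error of 6.79%, but at 16.7% in sgLTN1, against 6.79% there. Hmox1 showed the reverse, with 7.15% in sgNT against a counting error of 3.21%, and 1.72% in sgLTN1 against 2.86%. Gclc had the widest spread, 21.4% in sgNT, where it held 49, 112 and 80 counts. Prdx1 was the tightest control gene, at 2.12% against a counting error of 8.28%. The counting error assumes that reads are independent molecules.

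**Figure D3:**
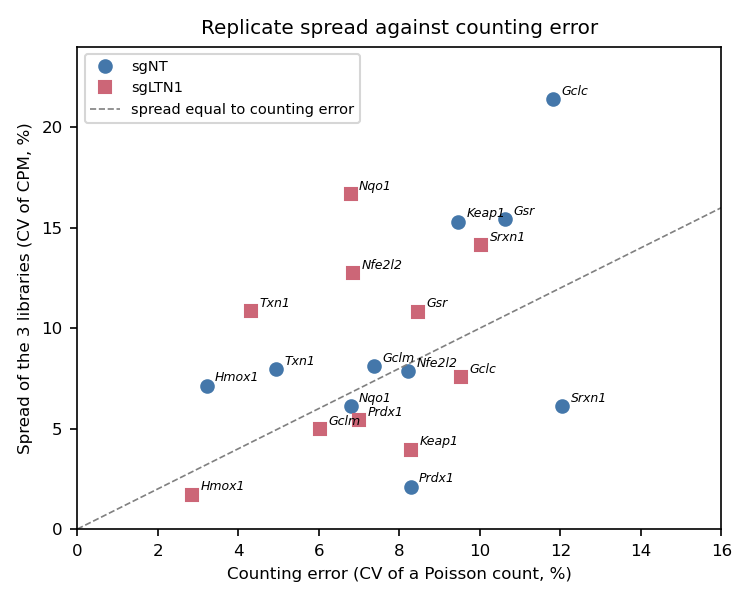
CV of CPM over the 3 libraries of a group (y axis, percent) against the CV that Poisson counting alone would give (x axis, percent) for the 10 genes in sgNT (blue circles) and sgLTN1 (red squares); the dashed line marks equality. Of the 20 points, 11 lie above the line, with Gclc in sgNT (21.4%) and Nqo1 in sgLTN1 (16.7%) the highest.

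Fold changes in these libraries moved with abundance, so each gene was also set beside the 200 tested genes nearest to it in mean abundance. The log2 fold change of Nqo1 was above that of 1.5% of its neighbours, Hmox1 above 6.5% and Txn1 above 10.5%. The other 7 lay between 31.5% (Keap1) and 73.0% (Nfe2l2). With the abundance trend removed, Nqo1 stood at -0.36 (adjusted p = 0.203 in edgeR) and Hmox1 at -0.23 (adjusted p = 0.144).

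The wider pathway was described with 7 further lists by role. They name 128 genes, of which 127 were in the table and 107 were tested. No gene of these lists passed the threshold over all genes, and 16 (15.0%) had an unadjusted p under 0.05, 8 higher and 8 lower, against 15.6% of all tested genes. Without sgLTN1 library 1 there were 8 such genes. Values did not overlap between the groups for 23 (21.5%), against 20.2% of all tested genes. Both shares lay near those of all tested genes. The authors' deposited table gave an adjusted p to 38 of these genes and called 4, where it called 8.42% of all 2697 genes with one. All 4 were higher in sgLTN1 (Syvn1, Abcc4, Abcc1 and Sod3). Of all genes that table called, 183 were higher and 44 lower.

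Among 24 tested partners and regulators of NRF2, 15 were above 0 and the median log2 fold change was 0.04. Syvn1, which encodes an ER ubiquitin ligase (HRD1) known to target NRF2 among other proteins, read 341, 352 and 326 CPM in sgNT and 407, 412 and 391 CPM in sgLTN1, with no overlap. Its log2 fold change was 0.25 (SE 0.06, adjusted p = 0.117 in edgeR), and the authors' deposited table gave 0.27 with an adjusted p of 0.019. With the abundance trend removed Syvn1 stood at 0.16 (adjusted p = 0.190 in edgeR). Nfe2l1, a relative of NRF2 that drives proteasome genes, read 143 ± 6.64 and 167 ± 15.8 CPM (0.23, SE 0.08, adjusted p = 0.208), and the kinase gene Gsk3a 15.0 ± 2.86 and 17.9 ± 1.28 CPM (0.26, SE 0.14, and 0.14 without sgNT library 3).

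Of 26 tested genes for glutathione synthesis, use and conjugation, 16 were above 0, at a median of 0.04. The genes with the smallest p were the export pumps Abcc4 and Abcc1, which carry glutathione conjugates and other anions. Abcc4 read 106, 90.2 and 86.9 CPM in sgNT and 116, 122 and 121 CPM in sgLTN1 (0.34, SE 0.08, adjusted p = 0.119 in edgeR). Abcc1 read 72.0, 61.9 and 61.7 CPM and 81.1, 86.2 and 76.2 CPM (0.32, SE 0.09, adjusted p = 0.131). The authors' deposited table called both, with adjusted p of 0.0166 and 0.0429. Slc7a11, the cystine importer that feeds glutathione synthesis, read 32.5 ± 1.99 and 38.0 ± 3.02 CPM (0.22, SE 0.09, adjusted p = 0.300).

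The thioredoxin and peroxiredoxin list had 11 of 14 tested genes below 0, against 52.7% of all tested genes, and a median of -0.13. An unadjusted p under 0.05 was reached by 5 of the 14 (35.7%), 4 of them lower, against 15.6% of all tested genes in either direction and 7.56% lower. The lower genes by that rule numbered 1 without sgNT library 2 or sgLTN1 library 1, and 2 without sgNT library 1 or sgLTN1 library 3. They numbered 1 with DESeq2, 2 without a filter on low counts and 6 with libraries scaled by their totals. Medians without single libraries ran from -0.15 to -0.08, and the median was -0.14 with the abundance trend removed. The reductase gene Txnrd3 read 4.13, 6.43 and 6.04 CPM in sgNT and 3.16, 2.71 and 2.88 CPM in sgLTN1 (-0.94, SE 0.23, adjusted p = 0.122 in edgeR) and rests on 172 counts in all. Its mitochondrial relative Txnrd2 differed the other way, at 37.8, 39.2 and 34.9 CPM and 46.8, 47.7 and 45.2 CPM (0.32, SE 0.08, adjusted p = 0.128). Prdx2 read 155 ± 11.0 and 136 ± 1.97 CPM (-0.19, SE 0.07, adjusted p = 0.221), and RefSeq lists pseudogenes of it. The other 2, the thioredoxin inhibitor gene Txnip (-0.25, SE 0.11) and Txnl1 (-0.17, SE 0.07), are named only because they complete this count, with their values already known.

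**Figure D4:**
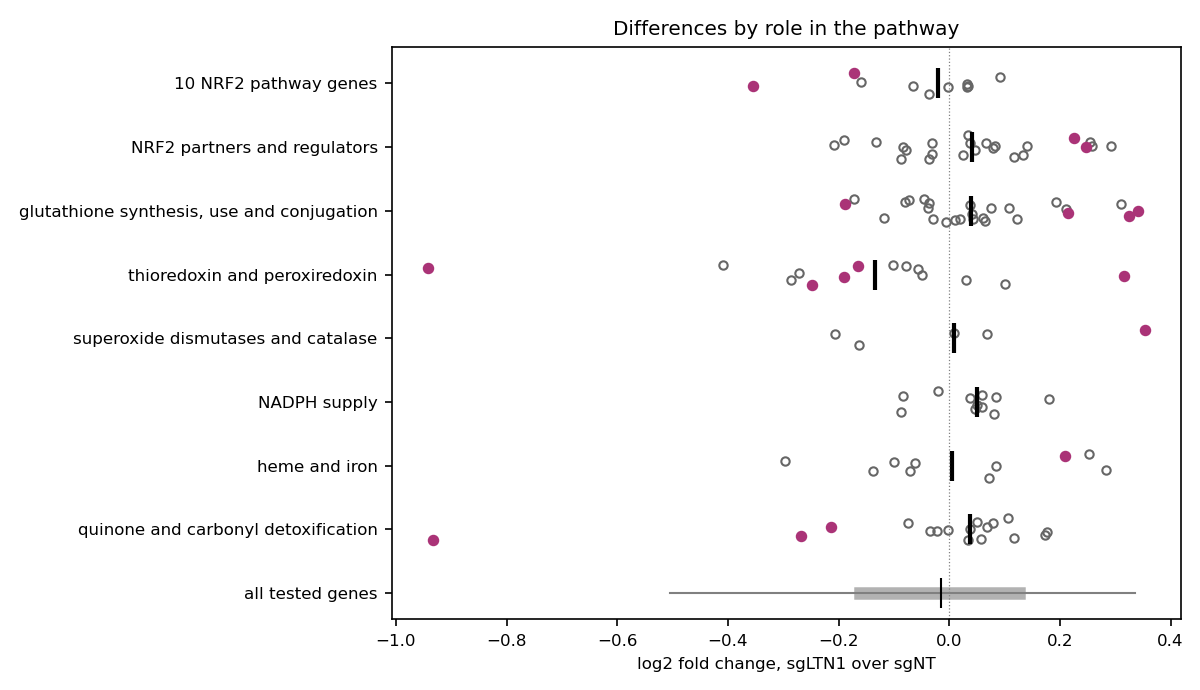
Log2 fold change of sgLTN1 over sgNT (x axis) for the 10 genes and for the tested genes of 7 pathway lists, with filled points for an unadjusted p under 0.05, open points for the rest and a black tick at each median. The bottom row gives all tested genes, with the median, the 25th to 75th percentiles (thick bar, -0.16 to 0.13) and the 5th to 95th percentiles (thin line, -0.50 to 0.34).

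Enzymes that remove superoxide and peroxide gave 5 tested genes. Sod3, the extracellular superoxide dismutase, read 42.2, 51.5 and 42.7 CPM in sgNT and 59.3, 58.7 and 57.5 CPM in sgLTN1 (0.35, SE 0.09, adjusted p = 0.128 in edgeR), and the authors' deposited table called it with an adjusted p of 0.047. The mitochondrial Sod2 read 30.7 ± 0.903 and 27.3 ± 1.09 CPM without overlap (-0.16, SE 0.08, adjusted p = 0.387). The cytosolic Sod1 read 98.9 ± 3.90 and 100.2 ± 15.8 CPM (0.01, SE 0.10), its copper chaperone gene Ccs 10.6 ± 3.09 and 8.92 ± 0.334 CPM (-0.21, SE 0.20), and catalase (Cat) 4.12 ± 1.75 and 4.56 ± 1.27 CPM (0.07, SE 0.31). The signs of Sod1, Ccs and Cat changed in some of the alternative settings.

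None of the 11 tested genes that supply NADPH, the electron donor of glutathione and thioredoxin reductases, had an unadjusted p under 0.05 or separated groups, and their median was 0.05. Nnt (0.18, SE 0.11), Mthfd1l (-0.08, SE 0.07) and Taldo1 (-0.09, SE 0.10) had the smallest p, and without sgNT library 3 Nnt stood at 0.07. Of 10 genes for heme and iron, Tfrc, the transferrin receptor, read 1377 ± 64.4 and 1592 ± 106 CPM without overlap (0.21, SE 0.06, adjusted p = 0.168 in edgeR). With the abundance trend removed Tfrc stood at 0.07 (unadjusted p = 0.219). The biliverdin reductase gene Blvra, which acts on the product of heme oxygenase, stood at -0.30 (SE 0.14, and -0.17 without sgNT library 2), and the iron exporter gene Slc40a1 at 0.28 (SE 0.14). Of 17 other detoxifying enzymes, 3 (17.6%) had an unadjusted p under 0.05, against 15.6% of all tested genes in either direction. All 3 were lower, where 7.56% of all tested genes were lower by that rule. Lower genes numbered 0 with DESeq2, 1 when any single library other than sgLTN1 library 3 was left out, and 3 without that library, where 2 others were higher. The 3 genes were the aldo-keto reductase gene Akr1b8 (-0.93, SE 0.33, from 76 counts in all), the carbonyl reductase gene Cbr1, at 31.2 ± 2.78 and 25.7 ± 0.756 CPM (-0.27, SE 0.09), and Akr1a1 (-0.21, SE 0.10). The adjusted p of these 3 were 0.206, 0.210 and 0.318.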

How the data were processed

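The authors deposited whole-number read counts per gene for 6 ribosome profiling libraries, and a second table that holds, per the file headers, DESeq2 results: log2 fold changes with standard errors, a mean normalized count as a signal level, a Wald statistic as a score, and p-values. The submitters' processing notes name the build GRCm39 and the tools STAR 2.7.11a, Bowtie2 2.5.4, featureCounts 2.12.3, DESeq2 1.38.3, SAMtools 1.9, fastp 0.23.4 and UMI-tools 1.1.2. The sources used here do not give annotation, strand or multi-mapping settings.

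Groups came from the genotype in the labels, which give all libraries the same batch. The count table went through edgeR 4.0.16 under R 4.3.3 (filterByExpr, TMM scaling, a quasi-likelihood fit to the 6 libraries with sgLTN1 compared to sgNT, Benjamini-Hochberg adjustment over all tested genes, threshold 0.05). The standard error comes from the test statistic, and intervals are 95% t intervals. DESeq2 1.42.0 and limma 3.58.1 served the alternatives. Every pair of replicate libraries differed by more than sampling noise (chi-square per degree of freedom of at least 2.6). The test was checked on simulated counts.

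The 10 genes and the lists were chosen with earlier results of these data known. The text names the 10 genes, Ltn1, the 3 genes of smallest p in each other list and all tested superoxide and catalase genes. Txnip, Txnl1, the glutathione peroxidase and ferritin genes and marker genes are named outside this rule, after their values were seen. Akr1b3 was not matched by name, and Nnt, listed under 2 identifiers, was counted once. No coding lengths were used, so counts and CPM of different genes that stand side by side are not corrected for length.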

Additional observations from a re-analysis of the deposited data

How the results depend on the processing

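The alternatives were DESeq2, scaling by library totals or by RLE, removal of the abundance trend, no filter on low counts, the replicate block, and leaving out each library. None of the 10 genes was called under these 12 settings, although DESeq2 gave an adjusted p to only 2 of them, with 0 to 3 at an unadjusted p under 0.05. Of their 120 log2 fold changes, 103 kept their sign and 17 did not. With library totals Gclc, Gclm and Gsr stood at -0.043, -0.043 and -0.045. Srxn1, at -0.0026, was 0.024 with DESeq2, 0.0059 with RLE, 0.023 without the trend and 0.017 without a filter. Leaving out single libraries gave ranges of -0.20 to 0.036 for Keap1, -0.063 to 0.18 for Gclc, -0.025 to 0.093 for Gclm, -0.086 to 0.13 for Srxn1, -0.050 to 0.17 for Gsr and -0.066 to 0.012 for Prdx1. Among the other named genes it gave -0.45 to 0.022 for Ccs, -0.19 to 0.28 for Cat, -0.11 to 0.10 for Sod1 and -0.15 to 0.018 for Taldo1. Cat was -0.0044 and Sod1 -0.068 with library totals, and Sod1 was -0.029 without the trend. No cause was tested.

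Genes called numbered 23, against 227 with DESeq2, 42 with library totals, 222 without a filter and 4 to 333 without single libraries. Called genes of the pathway lists numbered 0, against 4 with DESeq2, 1 without a filter (Abcc4) and 0 to 3 without single libraries, the 3 being Syvn1, Tfrc and Akr1a1 without sgLTN1 library 3. Libraries with the same number in the titles did not deviate together (correlations of -0.0483, 0.0665 and 0.0884), so the numbers were not taken as pairs. With the replicate block 609 genes and 7 pathway genes were called, the latter all higher (Syvn1, Nfe2l1, Abcc4, Abcc1, Txnrd2, Sod3 and Tfrc). A comparison of levels per coding length was not run, since no lengths were used here. Genes under 200 counts in all, such as Txnrd3, Cat and Akr1b8, are limited by depth.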

Other observations

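Several antioxidant genes had few footprints. Over all 6 libraries the glutathione peroxidase genes Gpx1 and Gpx4 held 21 and 31 counts and were not tested, while Gpx3 held 195 and Gpx7 128. The ferritin light chain gene Ftl1 had means of 2.07 ± 0.192 (sgNT) and 1.84 ± 0.746 CPM (sgLTN1), and the heavy chain gene Fth1 57.1 ± 13.3 and 67.3 ± 15.0 CPM (SD, n = 3 per group). RefSeq lists pseudogenes named Gpx4-ps1 and Gpx4-ps2, and such copies of Gpx3, Gpx7, Ftl1 and Fth1 were not looked for. The part that reads shared with such copies have in these values was not tested.

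The table lists Nnt under 2 identifiers, ENSMUSG00000025453.19 with 1983 counts and ENSMUSG00000116207.2 with 1977.

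Counts on the 10 genes together made up 0.0459%, 0.0486% and 0.0472% of the sgNT libraries and 0.0420%, 0.0398% and 0.0424% of the sgLTN1 libraries. The groups did not overlap, where 20.2% of single tested genes did not overlap under TMM scaling (10.1% lower). The sum was led by Hmox1, with 7285 counts, and Txn1, with 3099, and Hmox1 did not overlap by itself. The share of the 10 genes was computed after the values of Hmox1 and Txn1 were seen, and no test was made of it. It is taken of raw library totals, under which the median log2 fold change of all tested genes was -0.09, against -0.02 with TMM scaling.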
